A study of Rattus norvegicus with 6 samples.

Results

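The microRNAs that lie inside the Hox gene clusters were followed in blood plasma of rats, as 5 mature strands: rno-miR-10a-5p, rno-miR-10b-5p, rno-miR-196a-5p, rno-miR-196b-5p and rno-miR-196b-3p. They were chosen by name, as all spots that the arrays assign to these strands, and make up 5 of the 758 rat microRNAs on the array. Plasma came from 3 untreated male Sprague-Dawley rats aged 10 weeks. Each rat gave 1 arterial sample, from the abdominal aorta, and 1 venous sample, from the postcava, so that 3 arterial and 3 venous samples were compared as pairs from the same animal. Blood was taken into EDTA, and plasma was spun again and passed through a filter before RNA was extracted, so the samples hold extracellular microRNA and RNA from any cells or fragments that passed. Each sample was hybridized to 1 single-colour Agilent Rat miRNA array, and each of the 5 strands was read by 2 probes with 8 spots each, thus by 16 spots on an array. The question of the comparison was which plasma microRNAs differ between the arterial and the venous side. The study itself picked rno-miR-196a-5p and rno-miR-196b-3p from these same samples, so their arterial direction in its table is not independent evidence.

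Hox genes encode the transcription factors that give cells their position along the body axis, and their clusters carry microRNA genes between the protein-coding genes. The miR-10 genes lie beside Hox4 genes and the miR-196 genes beside Hox9 or Hox10 genes. Both families are known to act on Hox messenger RNAs, and miR-10 is also known from endothelium and smooth muscle of vessels. A microRNA pairs with its targets mainly through its seed, which is bases 2 to 8 counted from the 5′ end.

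All 5 strands were found in the RefSeq microRNAs of the rat assembly GRCr8. They are printed here because the seed and the few bases between family members decide what a probe has to tell apart. Capitals mark the seed.
rno-miR-10a-5p: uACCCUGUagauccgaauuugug
rno-miR-10b-5p: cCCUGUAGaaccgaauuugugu
rno-miR-196a-5p: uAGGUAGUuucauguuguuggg
rno-miR-196b-5p: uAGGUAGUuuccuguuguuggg
rno-miR-196b-3p: uCGACAGCacgacacugccuuca
The strand rno-miR-10a-5p lies at chr10:81779730-81779752 on the plus strand, between Hoxb5 and Hoxb4. The strand rno-miR-10b-5p lies at chr3:80035886-80035907 on the plus strand, inside Hoxd4. The strand rno-miR-196a-5p lies at chr7:135988900-135988921 on the plus strand, between Hoxc10 and Hoxc9. Both arms of miR-196b lie on the minus strand between Hoxa9 and Hoxa10, the 5p arm at chr4:82661149-82661170 and the 3p arm at chr4:82661113-82661135.

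The 2 miR-10 strands share 20 of 21 overlapping bases. Their start differs by 2 bases, so that rno-miR-10b-5p begins later and carries another seed in this annotation, and within the overlap 1 base differs (U12A, counted from the 5′ end of rno-miR-10a-5p). Read from 2 bases earlier, the miR-10b hairpin would give the seed ACCCUGU of rno-miR-10a-5p. The strands rno-miR-196a-5p and rno-miR-196b-5p have the same seed and differ by 1 base (A12C). Another member of the family, rno-miR-196c-5p, differs from rno-miR-196a-5p by A12G and keeps the seed. The 3p arm of miR-196b shares its seed with no other of the 5 strands. The files used here give no probe sequences, and how far the probes separate such near-identical strands was not tested.

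The plasma divided the group by family. Feature Extraction, the software that reads the scanned arrays, called both miR-10 strands detected on 6 of 6 arrays and each of the 3 miR-196 strands on 0 of 6 arrays. Over the whole array, 126 of 758 microRNAs (16.6%) were detected on all arrays and 557 on none. Of the 96 spots of rno-miR-10a-5p over all arrays, 91 were well above background, with 12 to 16 of 16 on an array. Of the 96 spots of rno-miR-10b-5p, 55 were well above background, with 8 to 12 on an array. For each of the 3 miR-196 strands the count was 0 of 96.

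The negative control spots gave a second view of the same split. A limit was set on each array at the 95th percentile of its 434 negative controls, which lay between 3.49 and 4.83 intensity units. All 96 spots of rno-miR-10a-5p and 89 of 96 spots of rno-miR-10b-5p exceeded it. Of the spots of rno-miR-196a-5p, 7 of 96 (7.29%) exceeded it, against 5 of 96 (5.21%) for rno-miR-196b-5p and 8 of 96 (8.33%) for rno-miR-196b-3p. By construction 5% of the negative controls lie above this limit, so the miR-196 spots were read near the level of probes without a target. Split into arterial and venous spots, 5 and 2 of 48 exceeded it for rno-miR-196a-5p, 5 and 0 for rno-miR-196b-5p, and 4 and 4 for rno-miR-196b-3p. All 5 arterial spots of rno-miR-196b-5p came from its probe A_26_P00001560, and those at 7.01 and 5.03 were marked as outliers. Spots of an array are not separate samples.

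**Figure D1:**
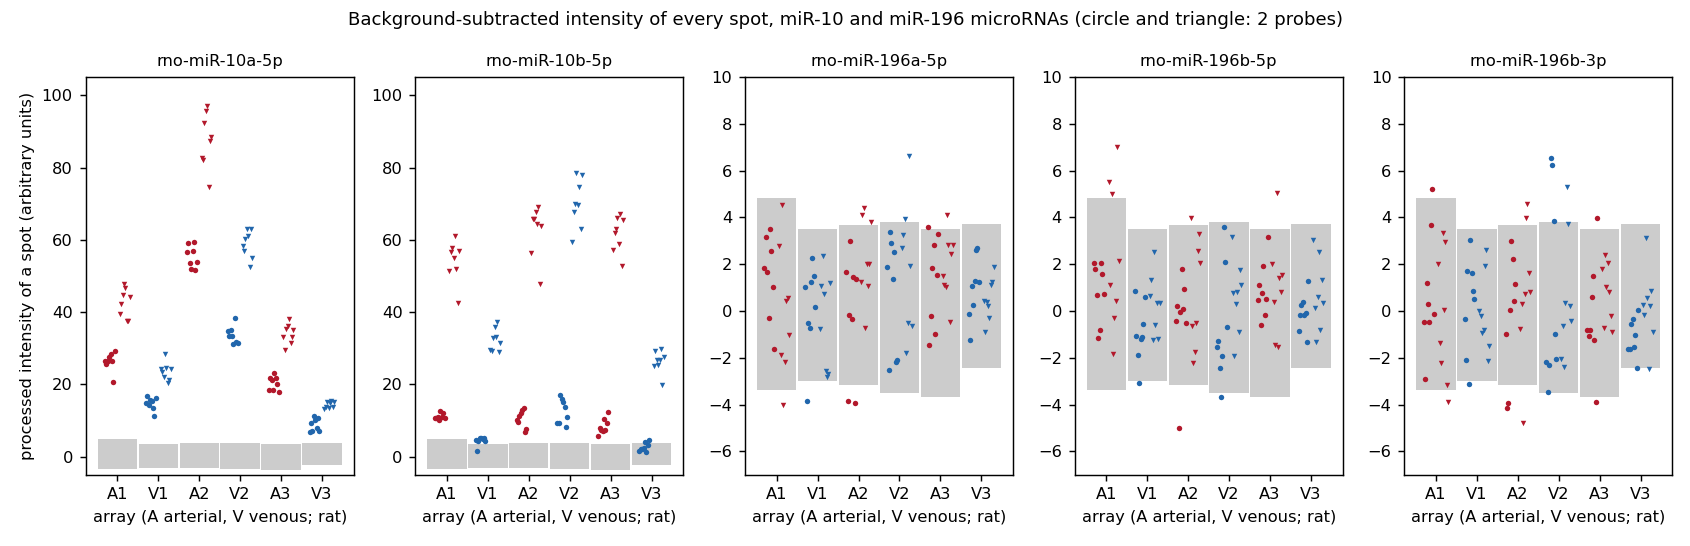
Processed intensity (background-subtracted, arbitrary units) of each of the 16 spots of a microRNA on each array, arterial in red and venous in blue, ordered by rat, with circles and triangles for the 2 probes and a grey band from the 5th to the 95th percentile of the negative controls. The miR-10 strands have an axis that differs from that of the miR-196 strands, whose spots lie mostly inside the band.

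Values are given first as the mean processed intensity of the microRNA, with the local background subtracted and no adjustment between arrays. For rno-miR-10a-5p, which marks the Hoxb cluster, arterial plasma read 34.5 in rat 1, 71.1 in rat 2 and 27.3 in rat 3. Venous plasma read 18.8, 46.0 and 11.5 in the same order. It was higher in the arterial sample of every rat, by 1.83, 1.55 and 2.37 times, while the groups overlapped because rat 2 was the highest of both.

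The arrays themselves differed in brightness. Over the 126 microRNAs detected on all arrays, the median log2 ratio of arterial to venous intensity was 0.63, -0.29 and 0.84 for the pairs of rats 1, 2 and 3. Relative to that median, rno-miR-10a-5p was higher in arterial plasma by 0.24, 0.92 and 0.41 on the log2 scale. More RNA on an array and more copies of 1 microRNA in plasma both raise these raw intensities. They are given as read, and the main tests were run after normalization between arrays.

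After quantile normalization, which gives all arrays the same distribution of intensities, the log2 level of rno-miR-10a-5p was 5.04, 5.90 and 4.89 in arterial and 4.89, 4.88 and 4.41 in venous plasma. Arterial plasma averaged 5.28 ± 0.55 (SD, n = 3) and venous plasma 4.73 ± 0.28 (SD, n = 3). The level was higher in arterial plasma in 3 of 3 rats, by 0.14, 1.02 and 0.49, and the lowest arterial value equalled the highest venous value. Rat 2 had the largest of the 3 differences and rat 1 the smallest.

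The mean difference of rno-miR-10a-5p was 0.55 (SE 0.24), a fold of 1.46, and did not pass limma with the rat as block (adjusted p = 1, or 0.646 in a fit restricted to the 126 detected on all arrays). The exact permutation test within rats gave a two-sided p of 0.25, below which a design of 3 pairs cannot go. Without rat 2 the mean difference was 0.31. No member passed the cutoff of 0.025 on the unadjusted limma p, which 6 of 758 microRNAs (0.792%) passed, and 0 of 758 (0.0%) passed at an adjusted p of 0.05 in limma, with 12 under an unadjusted 0.05.

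The second miR-10 strand, rno-miR-10b-5p of the Hoxd cluster, read 33.0 in arterial plasma of rat 1, 37.6 in rat 2 and 35.0 in rat 3. Venous plasma read 18.5, 42.2 and 14.8. Before normalization, the arterial intensities lay close together and the venous ones were spread on both sides of them. The arrays were spread alike. In rats 1, 2 and 3, the median intensity of the microRNAs detected on all arrays was 35.4, 41.8 and 30.1 in arterial plasma. In venous plasma it was 21.8, 52.9 and 17.2. In rat 2 the arterial intensity was the lower, at 0.89 times the venous one, and in rats 1 and 3 it was 1.78 and 2.37 times higher. Relative to the median of the microRNAs detected on all arrays, the 3 rats gave 0.20, 0.12 and 0.41 on the log2 scale.

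Normalized, the log2 level of rno-miR-10b-5p was 4.99, 4.88 and 5.25 in arterial and 4.86, 4.77 and 4.88 in venous plasma. The mean was 5.04 ± 0.19 (SD, n = 3) against 4.83 ± 0.06 (SD, n = 3). The arterial sample was higher in 3 of 3 rats, by 0.13, 0.11 and 0.37. As with the other miR-10 strand, the groups touched at 1 value.

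The mean difference of rno-miR-10b-5p was 0.20 (SE 0.08), a fold of 1.15, and did not pass limma with the rat as block (adjusted p = 1, or 0.760 over the microRNAs detected on all arrays). Without rat 3 it was 0.12, and the unadjusted limma p of 0.0217 then passed the cutoff, while the adjusted p stayed at 1. In that fit, on rats 1 and 2 alone, 17 of 758 microRNAs passed the cutoff. Rats 1 and 2 were on 1 slide and rat 3 on another, with both groups on each. On the first slide the mean differences were 0.58 for rno-miR-10a-5p and 0.12 for rno-miR-10b-5p, and on the second they were 0.49 and 0.37.

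**Figure D2:**
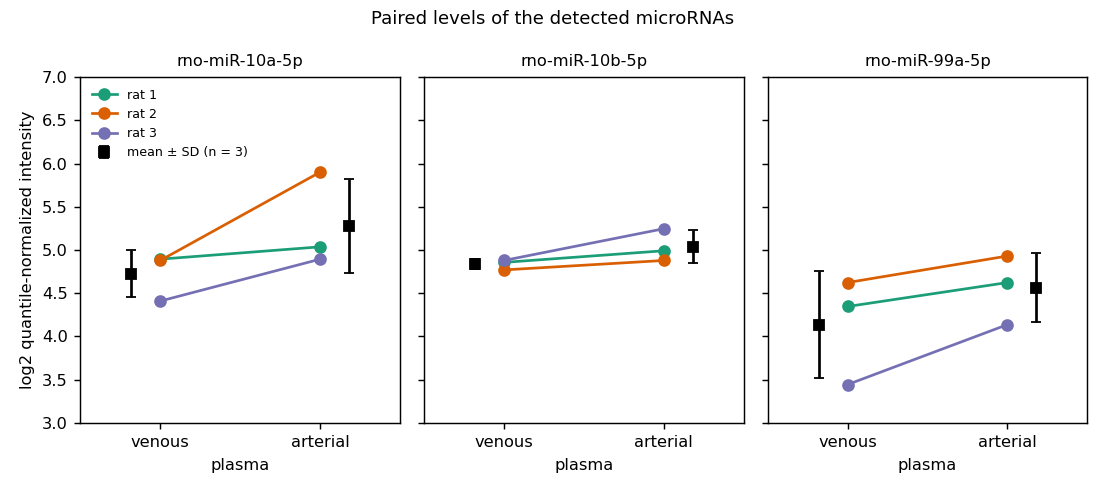
Log2 quantile-normalized intensity of the 2 miR-10 strands and of rno-miR-99a-5p in venous and arterial plasma, with a line for each rat and squares for the mean ± SD of 3 samples. Every line rises from venous to arterial, least for rno-miR-10b-5p (0.11 in rat 2) and most for rno-miR-10a-5p (1.02 in rat 2).

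Among the 126 microRNAs detected on all arrays, 12 (9.52%) were higher in arterial plasma of all 3 rats, and both miR-10 strands were among these. Ordered by mean difference, rno-miR-10a-5p stood at place 5 and rno-miR-10b-5p at place 24 of 126, where the median difference of the 126 was -0.004 and that of both strands 0.38. The strands did not vary together over the 6 arrays (Pearson's r = -0.05, as a description over 3 rats with 2 samples each). The difference of rno-miR-10a-5p exceeded that of rno-miR-10b-5p by 0.01, 0.91 and 0.12 in rats 1, 2 and 3, with a mean of 0.35 ± 0.49 (SD, n = 3) and an exact two-sided permutation p of 0.25. This comparison of the strands thus rests mostly on rat 2.

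The 2 probes of each strand were then read separately. The probes of rno-miR-10a-5p, A_26_P00001181 and A_26_P00002567, had mean intensities of 8.82 to 54.7 and of 14.2 to 87.5 over the arrays, and 43 and 48 of their 48 spots were well above background. Normalized over all probes, the first gave log2 differences of 0.14, 0.89 and 0.59 in rats 1, 2 and 3. The second gave 0.12, 1.01 and 0.64. Both probes of rno-miR-10a-5p thus had the arterial sample higher in each rat, with the rats in the same order.

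The probes of rno-miR-10b-5p gave different pictures. For A_26_P00001189 the mean intensity was 26.9 to 72.0, and 48 of 48 spots were well above background. For A_26_P00001188 it was 2.71 to 12.5, and 7 of 48 spots were. The well-measured probe A_26_P00001189 gave differences of -0.09, 0.19 and 0.48, with the arterial sample higher in 2 of 3 rats. The dim probe A_26_P00001188 gave 0.39, 0.13 and 1.13, higher in 3 of 3. The total signal that Feature Extraction gives the microRNA left the dim probe out in the venous plasma of rats 1 and 3, where it equals the signal of the other probe alone (17.2 and 14.3), and with that total the mean difference of rno-miR-10b-5p was 0.36 in place of 0.20.

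The direction of each rat was followed through 11 other ways of computing the values, of which 9 can move a difference, since both strands lie above either other floor. For rno-miR-10a-5p, the arterial sample was higher in all 3 rats under 8 of the 9, the exception being scaling to the 75th percentile of all microRNAs, where rat 1 gave -0.16. For rno-miR-10b-5p it was higher in all 3 rats under 5 of the 9. Without normalization rat 2 was lower in arterial plasma (-0.17), with the brighter probe alone rat 1 was (-0.10), and with scaling to the 75th percentile of the detected microRNAs rat 1 was at -0.01. Scaling to the 75th percentile of all microRNAs left 1 of 3 rats higher in arterial plasma for this strand. Only 137 to 175 of the 758 microRNAs were detected on an array, so that percentile need not fall on a detected one.

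**Figure D3:**
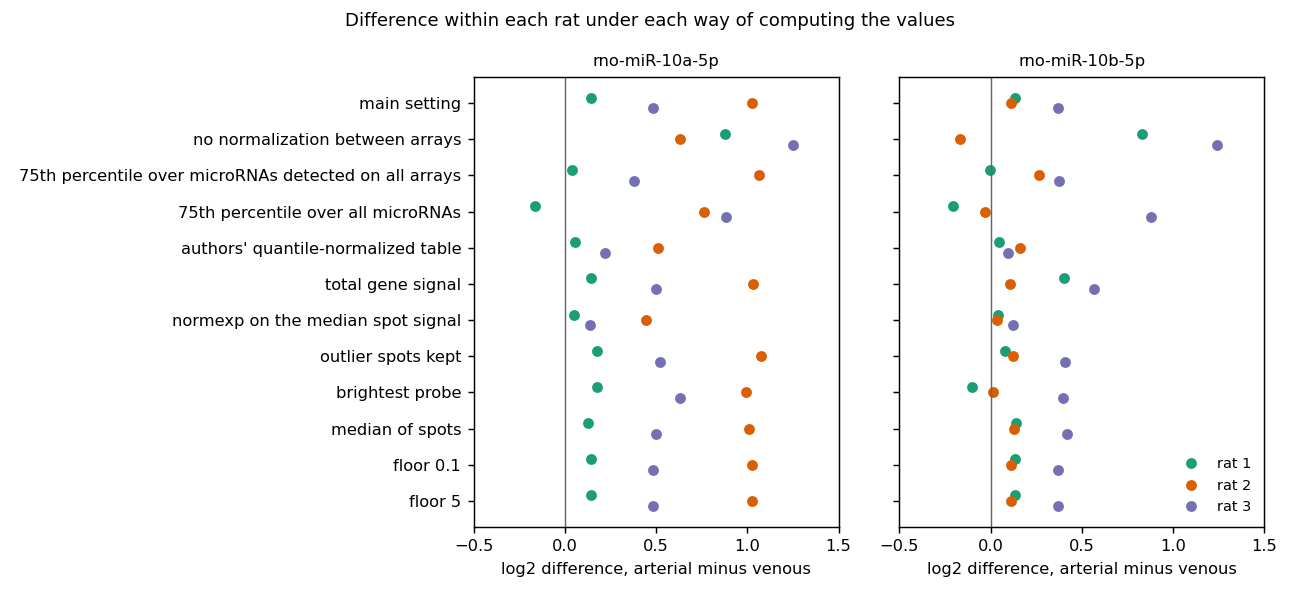
Log2 difference of arterial minus venous plasma within each rat (colour) for the 2 miR-10 strands under the main setting and 11 other ways of computing the values. Points to the right of the line at 0 are higher in arterial plasma. Those of rno-miR-10a-5p stay to the right except for rat 1 at -0.16, and those of rno-miR-10b-5p cross it in rats 1 and 2.

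The miR-196 strands were not detected in either group, and none of their spots was well above background, so no fold is given for them. The processed intensity of rno-miR-196a-5p, which is known to direct cleavage of the Hoxb8 messenger RNA, was 0.36 in arterial plasma of rat 1, 1.07 in rat 2 and 1.61 in rat 3. Venous plasma read -0.35, 1.30 and 0.74. The means were 1.01 ± 0.63 and 0.56 ± 0.84 (SD, n = 3 each), and the ranges overlapped. Arterial minus venous, the rats gave 0.71, -0.23 and 0.87 units. Over the spots of a probe on an array, the standard error of the mean was 0.32 to 0.99 units, which covers the spots and not the samples.

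For rno-miR-196b-5p, the 5p arm from the Hoxa cluster, the intensity was 1.30, 0.24 and 0.52 in arterial and -0.28, -0.02 and 0.26 in venous plasma. Without normalization, the arterial sample was higher in each rat, by 1.58, 0.26 and 0.26 units. The spots of a probe on an array had an SD of 0.71 to 2.71 units. After normalization rno-miR-196b-5p stood above the floor of 1 intensity unit on 1 of 6 arrays, arterial plasma of rat 1. For rno-miR-196b-3p, the arm opposite to it, the intensity was 0.26, 0.27 and -0.09 in arterial and -0.07, 0.61 and -0.48 in venous plasma, and it stood above the floor on 0 arrays. Neither arm of miR-196b was thus detected in either kind of plasma.

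The authors' own table was examined for the same strands, because it holds values for every probe. Within each array it orders the probes exactly as the raw brightness of the first listed of their spots, with no background subtracted. In this table rno-miR-196a-5p stood at 40.6, 42.4 and 43.6 in arterial and 40.1, 41.9 and 43.2 in venous plasma. The differences were 0.545, 0.46 and 0.375 intensity units, higher in arterial plasma in 3 of 3 rats and close to each other. They are means of 2 probes that went different ways. Probe A_26_P00001447 stood at 37.67, 39.75 and 46.25 in arterial and 37.88, 39.58 and 44.17 in venous plasma, lower in arterial plasma of rat 1. Probe A_26_P00001448 stood at 43.63, 45.0 and 41.0 against 42.33, 44.25 and 42.33, lower in arterial plasma of rat 3. The raw brightness of the first spots of probe A_26_P00001447 was 38, 40 and 43 in arterial and 39, 39 and 42 in venous plasma, so that the table orders whole units of brightness.

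Of the other 2 miR-196 strands, rno-miR-196b-3p was higher in arterial plasma of the table by 0.795, 0.50 and 1.04 units in rats 1, 2 and 3, and rno-miR-196b-5p gave 1.79, 1.81 and -1.96. The direction of rno-miR-196b-3p came from probe A_26_P00003327, at 38.5, 37.79 and 46.25 in arterial and 36.83, 36.13 and 44.17 in venous plasma. Its other probe, A_26_P00003326, was not higher in arterial plasma of any rat, at 36.75, 36.67 and 42.33 against 36.83, 37.33 and 42.33. Of all 758 microRNAs, 54 (7.12%) were higher in arterial plasma of all 3 rats in this table, and 4 of the 5 strands were among them. Set against this, the raw brightness of the 8 spots of a probe on an array had an SD of 1.07 to 5.57 for rno-miR-196a-5p and of 1.30 to 8.01 for rno-miR-196b-3p. On the log2 scale of this table, limma with the rat as block gave adjusted p = 0.939 for rno-miR-196a-5p and 0.915 for rno-miR-196b-3p, and 0.890 for both miR-10 strands.

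To see what another spot would have given, each of the 8 listed spots was taken in turn and quantile normalized over all probes. Computed so, the first spot gave rno-miR-196a-5p a mean difference of 1.17 units, against 0.46 in the table, whose order it shares but whose exact values it does not return. For rno-miR-10a-5p, 8 of 8 spots had the arterial sample higher in all 3 rats, and for rno-miR-10b-5p 5 of 8 did. For rno-miR-196a-5p it was 3 of 8, with mean differences from -1.50 to 1.83 units. The other strands gave 2 of 8 for rno-miR-196b-5p and 1 of 8 for rno-miR-196b-3p, with mean differences of -0.69 to 1.36 and of -2.18 to 1.66. Over all 758 microRNAs, 10.6 to 13.9% were higher in all 3 rats with a given spot. With the mean of all spots, rno-miR-196a-5p differed by -0.07, 0.46 and 0.58 and rno-miR-196b-3p by -0.66, -0.01 and 1.08 in rats 1, 2 and 3, so that neither kept 1 direction, while rno-miR-196b-5p was higher in arterial plasma of all 3 rats, by 1.17, 0.50 and 0.55.

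**Figure D4:**
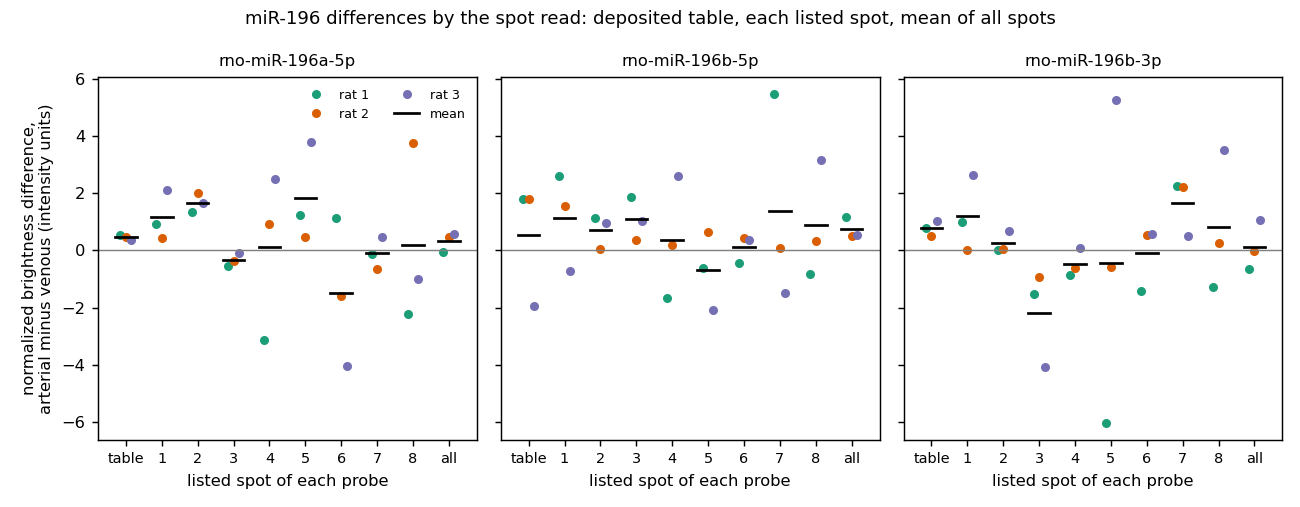
Difference in normalized brightness (arterial minus venous, intensity units) of the 3 miR-196 strands in each rat, from the authors' table, from each of the 8 listed spots of the probes, and from the mean of all spots, with a black bar for the mean over rats. The differences of rno-miR-196a-5p in the table lie between 0.375 and 0.545, and those from single spots lie between -4.04 and 3.77.

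The other strands of the Hox clusters were not detected either. They are the 3p arms of miR-10a, miR-10b and miR-196a, both arms of miR-196c, which lies between Hoxb13 and Hoxb9, and miR-615 of the Hoxc cluster. Of these 6, 0 were detected on any array and 0 passed the cutoff. Their highest intensity was 3.93, for rno-miR-10b-3p in the arterial plasma of rat 1. On the 5 other arrays that strand was at 0.15 to 1.07.

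The closest relatives of miR-10 by sequence lie outside the Hox clusters and begin with nearly the same bases. Of these 3, rno-miR-99a-5p was detected on 6 of 6 arrays, rno-miR-100-5p on 2 arrays, both arterial, and rno-miR-99b-5p on 0, and 0 passed the cutoff. For rno-miR-99a-5p the normalized log2 level was 4.62, 4.93 and 4.14 in arterial and 4.35, 4.62 and 3.44 in venous plasma. It was higher in arterial plasma in 3 of 3 rats, by 0.28, 0.31 and 0.69, with a mean of 0.43 (SE 0.13) that did not pass limma (adjusted p = 1). The processed intensity of rno-miR-100-5p was 4.74, 4.25 and 2.45 in arterial and 2.19, 4.23 and 0.78 in venous plasma.

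Patterns over the 6 arrays were compared among the microRNAs detected on all of them that varied, 124 for each miR-10 strand, as a description. The most like rno-miR-10a-5p were rno-miR-365-3p (Pearson's r = 0.95), rno-miR-130a-3p (0.92), rno-miR-29c-3p (0.89), rno-miR-143-3p (0.86), which is known from vascular smooth muscle, and rno-miR-99a-5p (0.83). The most like rno-miR-10b-5p were rno-miR-494-3p and rno-miR-3584-5p (both 0.76), rno-miR-423-5p and rno-miR-328a-3p (both 0.75) and rno-miR-139-3p (0.74). The lists share no name, and rno-miR-10b-5p was at place 62 of 124 in likeness to rno-miR-10a-5p. Samples of the same rat share the animal, so these 6 points are not independent.

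Blood and tissue microRNAs were described on the same arrays through 5 lists. Detected on all arrays were 4 of 5 erythrocyte, 5 of 5 platelet and leukocyte, 2 of 3 liver, 1 of 4 muscle and 1 of 2 endothelial microRNAs, while rno-miR-1-3p and rno-miR-133a-3p of muscle were detected on none. The summed normalized intensity of the erythrocyte list was 2038 to 2261 in arterial and 1698 to 2385 in venous plasma, that of platelets and leukocytes 528 to 993 and 691 to 939, and that of muscle 19.1 to 45.2 and 19.2 to 47.1. In rats 1, 2 and 3, the log2 differences of the erythrocyte sum, arterial minus venous, were -0.08, -0.23 and 0.41. Those of platelets and leukocytes were -0.39, -0.18 and 0.08, and those of muscle 0.19, -0.13 and -0.06. The liver sum was 74.3 to 585 in arterial and 94.2 to 267 in venous plasma, with log2 differences of -0.34, 1.13 and 0.28 in rats 1, 2 and 3. The endothelial sum was 31.7 to 53.9 and 32.5 to 42.6, with differences of -0.12, 0.34 and 0.44. The liver list was furthest toward arterial plasma in rat 2, as rno-miR-10a-5p was, but in rat 1 it was lower there, unlike rno-miR-10a-5p. Its largest member in rat 2 was rno-miR-122-5p, at 635 in arterial and 308 in venous plasma before normalization. There rno-miR-192-5p read 65.8 and 62.8. The part of these lists in the miR-10 differences was not tested.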

How the data were processed

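The authors deposited the Agilent Feature Extraction output of each array, whose spot intensities are background-subtracted but carry no scaling across arrays, together with quantile-normalized probe intensities on the linear scale. The submitters' notes name Feature Extraction 11.0.1.1 and the array files 10.7.3.1. Here, control spots and outlier spots (8.72 to 10.4% of an array) were left out. Spots were averaged per probe and probes per microRNA. Quantile normalization ran over all 758 microRNAs, intensities below 1 were raised to this floor, and log2 levels were used. The paired comparison used limma 3.58.1 in R 4.3.3 (rat as block, two-sided, cutoff 0.025 as in the study, Benjamini-Hochberg over all microRNAs). The labels give each sample's rat number, which makes the pairs. Deviations from the group means correlated within rats 1, 2 and 3 at 0.80, 0.69 and 0.64. Between 137 and 175 microRNAs were detected on an array. Precision is limited by the number of arrays. The 3 rats are separate animals, and each of their 2 samples was read on 1 array.

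The text names the 5 strands, the other Hox-cluster microRNAs, the relatives of miR-10, and for each detected strand the 5 microRNAs with the highest correlation. The strands and lists were chosen with earlier results of these data known. Alternatives changed the normalization, the intensity, the summary of probes and spots, the floor, the filter, the test and the block, or left out 1 rat. Reading each probe or listed spot alone was chosen after seeing the data. Sequences are from RefSeq (12 of 14 strands matched), whose assembly need not be that of the array design.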

Additional observations from a re-analysis of the deposited data

Results flagged for a closer look

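One spot of rno-miR-196a-3p, the opposite arm of rno-miR-196a-5p, read 5373 intensity units in the arterial plasma of rat 3. It stood out because it lies in data the comparisons leave out: the software had marked it as an outlier. The 3 other spots of the same probe on that array read -1.13 to 3.69, and the highest spot of that probe in venous plasma read 5.77. The same probe had another spot marked as an outlier, at 59.3, in the arterial plasma of rat 1. With the spot at 5373 kept, the mean of the microRNA on the arterial array of rat 3 would be 335, and without it the mean is -0.97. The microRNA was detected on 0 arrays.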

How the results depend on the processing

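The mean differences of rno-miR-10a-5p and rno-miR-10b-5p stayed above 0 under the 12 of 20 alternatives that can move them, from 0.21 to 0.92 and from 0.07 to 0.64 on the log2 scale. The 8 others change the floor, filter, test or block and return the same differences. Of the 20, none passed the cutoff for rno-miR-10a-5p and 1 did for rno-miR-10b-5p, and none passed an adjusted p of 0.05 in limma (0.462 to 1 for both). Leaving out 1 rat at a time gave 0.31 to 0.75 for rno-miR-10a-5p and 0.12 to 0.25 for rno-miR-10b-5p, with the lowest value of the latter, without rat 3, past the cutoff. Without the replicate block the paired differences were again 0.55 and 0.20, with SE 0.34 and 0.11, and no call changed. The methods' t-test, run on the log2 levels of the main setting, gave adjusted p = 0.735 for both miR-10 strands. Requiring over 50% of the spots to be well above background left rno-miR-10b-5p detected on 3 arrays in place of 6. Between 2 and 33 of all microRNAs passed the cutoff under the alternatives, against 6, with 33, 19 and 17 without rats 1, 2 and 3, 13 with normexp or a floor of 0.1, 12 with the authors' table, 11 with the brightest probe, 10 with the median of spots, 3 over those detected on all arrays and 2 with a floor of 5. With the floor of 0.1, rno-miR-196b-5p alone of the miR-196 strands passed the cutoff (unadjusted limma p of 0.0222, adjusted p = 1), with 0 of its spots well above background. Read from listed spot 2, rno-miR-10b-5p differed by 7.70 units against 4.35 from the first.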
